A study of Mus musculus with 26 samples.

Results

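The genes described here take a sperm cell from the first acrosomal vesicle to fusion with the egg. They are 35 genes, chosen by their symbols for known roles in the acrosome, on the sperm surface, in gamete fusion or in egg activation, out of 51124 genes in the table of normalized read counts. All 35 symbols had exactly 1 row each. By role they formed 4 lists, with 9 genes of acrosome building, 9 genes of acrosome contents and membranes, 8 genes of surface enzymes and egg coat contact, and 9 genes of fusion and egg activation. The acrosome building list stands for the early part of the program, and the other 26 genes are called later genes below. The lists follow known roles, but they were drawn up with earlier results of these data known, and some genes fit more than 1 of them. *Izumo3* also acts in acrosome formation, and *Tex101* is already made before the end of meiosis. Of the building genes, *Acr*, *Acrbp*, *Zpbp* and *Zpbp2* are also part of the acrosome content, and *Spaca1* is also part of its membranes. Other placements of these genes were not tried. Early against later is therefore a description and is not independent of the values.

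Total RNA of whole testes from adult mice was sequenced after ribosomal RNA depletion, with 2 libraries for each of 3 genotypes. Libraries N1 and N2 came from wild type without inserted sites. N3 and N4 came from homozygous *10xPerf* mice, in which the *Ythdc2* 3′UTR holds 10 fully complementary target sites of piR-A, a pachytene piRNA, and N5 and N6 from homozygous *10xBulge* mice, whose 10 sites mismatch piR-A at its nucleotides 10 and 11. The knock-in alleles were made in embryos of the B6D2F1/J hybrid line, the insertion is present in every cell of the animal, and the sources used here give neither the exact age nor the number of animals behind a library. If the libraries of a genotype share animals, the p-values below measure technical spread.

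The acrosome is a secretory vesicle that caps the sperm nucleus. Golgi-derived vesicles carrying enzymes and membrane proteins fuse on the nuclear envelope in round spermatids, and the vesicle spreads over the nucleus. Transcription of some acrosome genes begins in pachytene spermatocytes, before the meiotic divisions, while that of many others begins after meiosis. In the fertilizing sperm the acrosome releases its content by exocytosis, which exposes the membrane that binds and fuses with the egg.

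Promoter sequences were available for 30 of the 35 genes (RefSeq, GRCm38.p6, 250 bases before to 50 bases after a transcription start). Many spermatid genes are transcribed through the cAMP response element (CRE), which CREM binds, so its core TGACG was searched on both strands. It was found in 11 of the 30 genes (36.7%), against 20.8% of all 32851 promoters in the same table. In the building list 6 of 8 genes held it and among the later genes 5 of 22, namely *Izumo1*, *Spaca3*, *Spesp1*, *Tmem95* and *Tmprss12*. Below are windows from 3 genes whose RNA stayed at over 30% of wild type in *10xBulge* (*Gopc*, *Zpbp2*, *Acrbp*) and 3 whose RNA fell under 10% (*Spaca1*, *Spaca3*, *Izumo1*), chosen after the values were seen, to put the letters of both kinds side by side. Each reads 5′ to 3′ along the gene, and capitals mark the core (CGTCA is TGACG on the other strand) or, in *Izumo1*, the full palindrome.
Gopc, chr10:52382273-52382293, minus strand: ttgccggtCGTCAaaatggtc
Zpbp2, chr11:98550942-98550962, plus strand: cctttactCGTCAcaccacca
Acrbp, chr6:125049901-125049921, plus strand: accttctgTGACGtagcagcc
Spaca1, chr4:34050122-34050142, minus strand: gaatggggTGACGcgcggtga
Spaca3, chr11:80858293-80858313, plus strand: ggtgatctTGACGaagttccg
Izumo1, chr7:45621707-45621730, plus strand: ccaccctaTGACGTCAcgatggga

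The core began 161 bases before the start in *Gopc*, 147 bases before it in *Zpbp2* and 18 bases before it in *Acrbp*. In *Izumo1* the full element TGACGTCA began 96 bases before the start. *Izumo1* was the only one of the 30 genes with the full element, which contains the core on both strands, against 1.79% of all promoters. The core was present in genes of both kinds, and a match is a description of letters and not of binding. Of other motifs searched on both strands, the RFX letters GTTGCC were in 7 of the 30 (23.3%, all promoters 12.5%), the MYB letters CAGTTG in 3 (10.0%, all promoters 13.7%) and TATAAA in 2 (6.67%, all promoters 13.6%). The MYB letters of *Dcst1* and *Dcst2* are the same site, which lies in the promoters of both.

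The libraries held 39.8 to 59.8 M normalized counts, equal to roughly 41.1 to 61.6 M reads, and 3 reads were worth 2.73 to 3.63 normalized counts. The lowest value of any of the 35 genes in any library was 7.77, so all of them were detected everywhere. *Ythdc2*, the gene that carries the sites, had 827 and 2412 in wild-type libraries, 1334 and 1136 in *10xPerf* and 1202 and 2458 in *10xBulge*, in normalized counts, and the genotypes overlapped. The libraries of a genotype were not equal among themselves. Over the 35 genes, Pearson's r of log2 values within a genotype was 0.903 to 0.959, and that of *10xBulge* libraries with the others was 0.503 to 0.646. The differences between N1 and N2 followed the GC content of the transcripts (Spearman's rho 0.710 over the 35 genes, which share both libraries), and so did those between N5 and N6 (0.633). Between N3 and N4 rho was -0.618, where the sign only reflects which library is taken first. No genotype was free of a GC trend between its libraries. Results that rest on 1 of these libraries are given with and without it.

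Markers of the cell types in testis moved with the *10xBulge* genotype. Spermatid markers such as *Prm1* and *Tnp2* summed to 709092 to 995751 normalized counts in wild type and 1751 to 3530.4 in *10xBulge*, and 10 of 10 were lower. Spermatocyte markers summed to 104745 to 119101 in wild type and 80130.4 to 123469 in *10xBulge*, and 0 of 10 passed the test, with 56.1% to 136% of wild type left. Of the somatic lists, 3 of 6 Sertoli markers, 4 of 6 Leydig markers and 5 of 6 macrophage markers were higher, as was 1 of 6 spermatogonia markers. Over all genes tested 11.4% were higher and 23.0% lower in *10xBulge*. The sums in wild type and *10xBulge* were 31199 to 33191 and 47254.5 to 69926 for Sertoli, 49865 to 71153 and 137901 to 289730 for Leydig, 2301 to 2529 and 5518 to 8556 for macrophage, and 7061 to 9319.8 and 13059 to 16358 for spermatogonia markers. In *10xPerf* 0 markers of any list passed the test, and spermatid markers summed to 811360 to 933215. Epididymis markers summed to at most 260 in any library, and *Lcn5* was at 0 in all 6. In whole testis, fewer cells of a type and less RNA per cell cannot be told apart, and the part of the cell types in the results on single genes was not tested.

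The first comparison asked which acrosome and fusion genes differed between *10xBulge* and wild-type testes. In *10xBulge* testes most of the late acrosome and fusion genes were under 10% of wild type, while most of the early acrosome genes kept over 30%. Keeping over 30% was not particular to the early genes. Of all 7565 genes with a wild-type mean at least that of the lowest of the 35, 84.3% did so. *Izumo1*, the sperm ligand of the egg receptor JUNO, was left at 5.01% of wild type, and *Plcz1*, which starts the calcium oscillations of the egg, at 1.21%. *Acr*, the acrosomal protease acrosin, kept 40.2%, and *Zpbp2*, a protein of the acrosomal matrix, 93.2%. Of the 35 genes 26 fell, 0 rose and 9 did not pass the test (limma, adjusted p under 0.1). Of all 23782 genes tested, 23.0% were lower and 11.4% higher. The median log2 fold change of the 35 genes was -4.28, against -0.026 for all genes tested. Scaling by library totals shifted the median of all genes to 0.358 and made 24.4% higher, against 20% lower. In that scaling 25 of the 35 genes were lower and 1, *Gopc*, was higher. Both *10xBulge* libraries lay below both wild-type libraries in 28 of the 35 genes, where 33.2% of all genes tested had such a separation. With 2 libraries a group, an exact permutation test of a single gene cannot give a p below 0.333, so the calls rest on the spread shared across genes in limma.

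**Figure D1:**
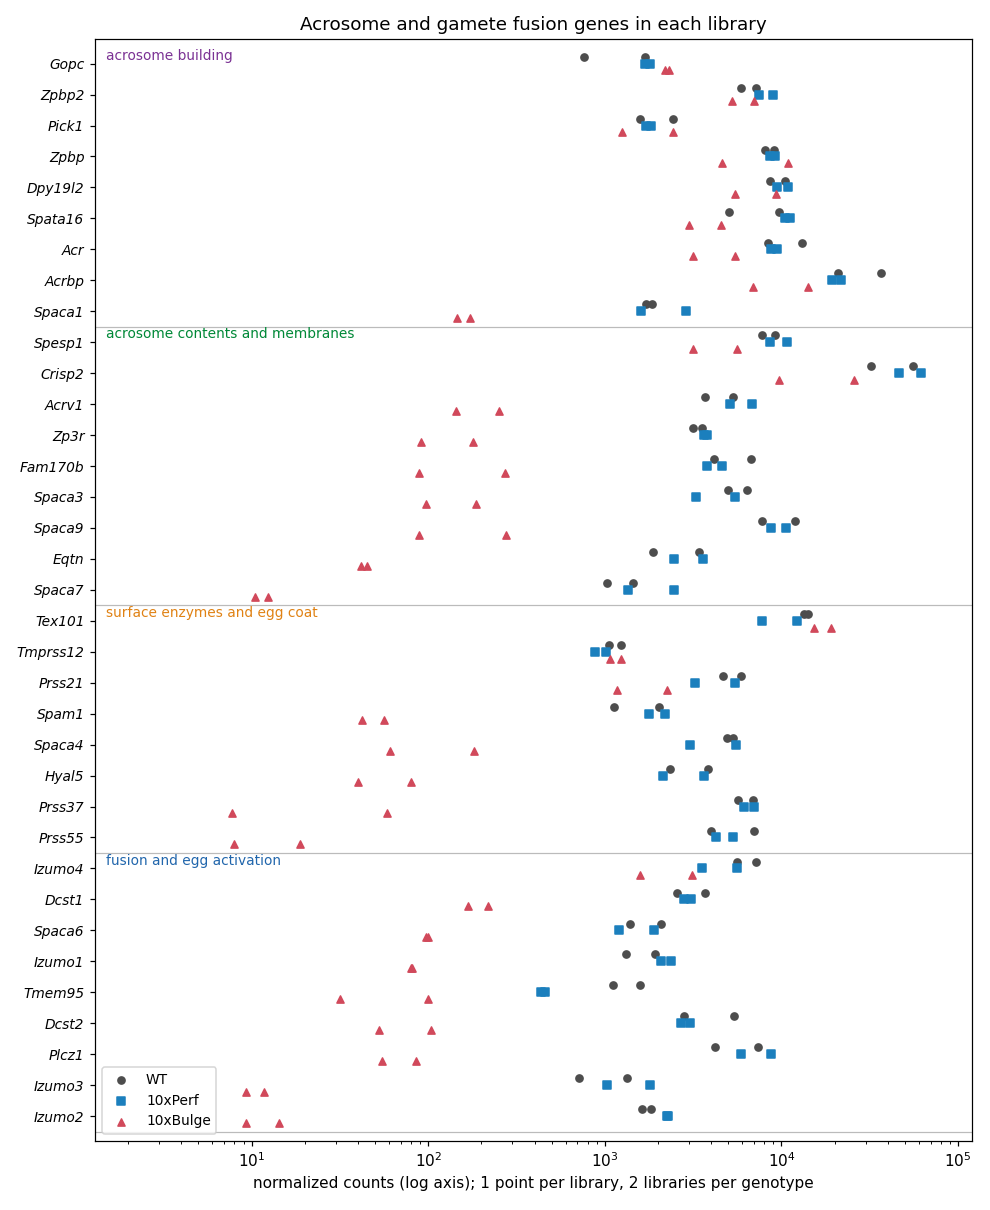
Normalized counts of the 35 genes in each of the 6 libraries on a log axis, by list, with circles for wild type, squares for *10xPerf* and triangles for *10xBulge*. The *10xBulge* triangles of 21 genes lie under 10% of the wild-type mean, while the squares of *10xPerf* stay near the circles except in *Tmem95*, at 33.0% of wild type.

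By the RNA that was left, the 35 genes are described here in an upper and a lower range. Expressed as the *10xBulge* mean in percent of the wild-type mean, 14 genes were at 32.3% to 185%, 21 genes at 0.244% to 8.92%, and 0 genes between 10% and 30%. These bounds were set after the values were seen. *Spaca1* was the highest of the lower range and *Prss21* the lowest of the upper range. Taking each *10xBulge* library over each wild-type library, the lowest ratio in the upper range was 17.3% (*Crisp2*) and the highest in the lower range 10.0% (*Spaca1*). Among all 7565 genes with a wild-type mean at least as high as the lowest of the 35 (1028 normalized counts), 84.3% were over 30%, 6.13% between 10% and 30%, and 9.61% under 10%. As few genes in general lay between these bounds, the empty middle is not read as a trait of the 35. In the further list described below, 4 of the 22 genes tested lay there. Of the 9 building genes 8 were in the upper range and 1 in the lower, and of the 26 later genes 6 were in the upper range and 20 in the lower. The median left was 77.2% for the building genes and 3.22% for the later genes, against 89.8% for those 7565 genes. All 21 genes of the lower range passed the test, with log2 fold changes from -8.63 to -3.48 and adjusted p from 5.66e-06 to 0.000263 (limma).

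**Figure D2:**
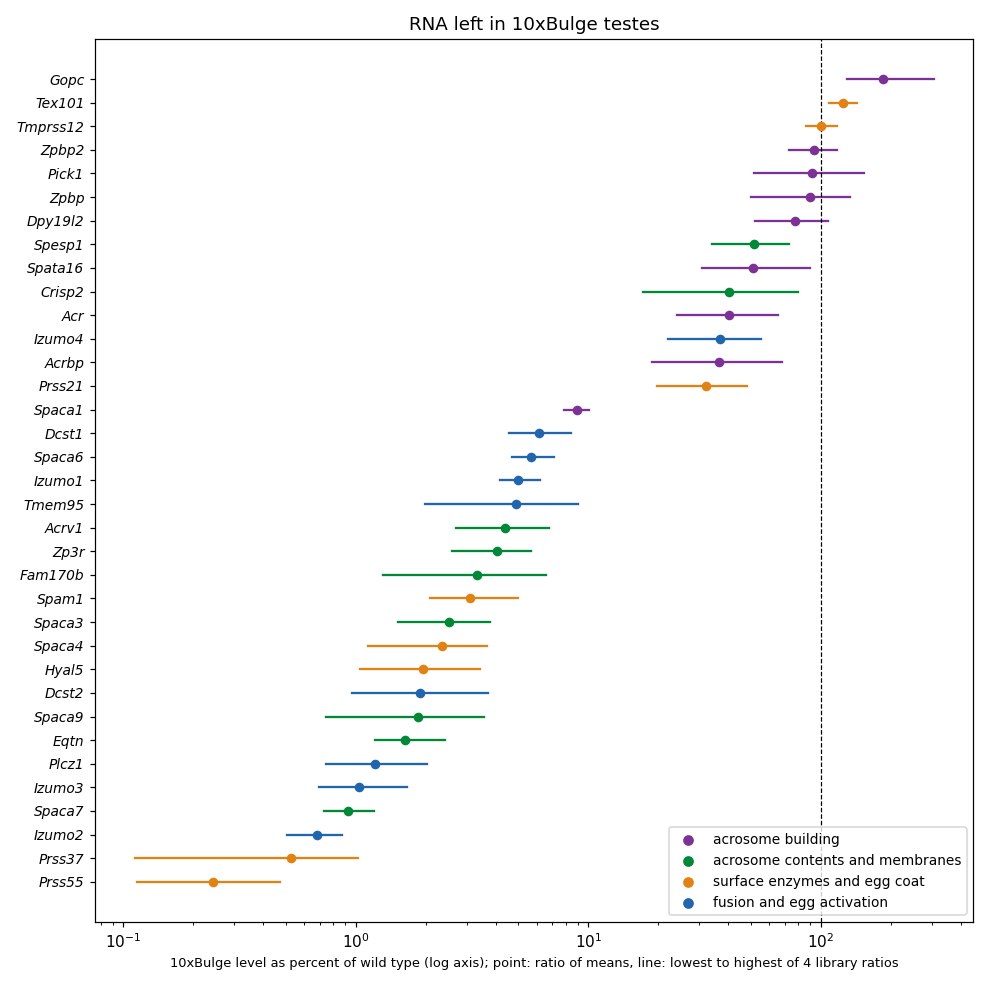
RNA of each of the 35 genes in *10xBulge* as a percentage of the wild-type mean on a log axis, where the point is the ratio of the means, the line runs from the lowest to the highest of the 4 library ratios, and colours mark the lists. No point lies between 10% and 30%, and 8 of the 9 building genes are among the 14 to the right of the gap.

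The genes of acrosome building come first in the life of the organelle. Of the 9 genes 3 were lower in *10xBulge*, 0 were higher and 6 did not pass, with a median log2 fold change of -0.42. Beside this list and the later lists, 23.0% of all genes tested were lower and 11.4% higher. *Gopc*, a Golgi PDZ protein that sorts the vesicles of the growing acrosome, had 758 and 1689 normalized counts in the wild-type pair, 1794 and 1699 in the *10xPerf* pair, and 2199.8 and 2319 in the *10xBulge* pair. Both *10xBulge* libraries were above both wild-type libraries, with a log2 fold change of 1.00 ± 0.45 that did not pass (adjusted p = 0.14, limma). Without N2, the higher wild-type library, it was 1.57 and passed (adjusted p = 0.0429). *Pick1*, a partner of GOPC in vesicle traffic, had 2441 and 1578 normalized counts in the wild-type pair, 1825 and 1721 in the *10xPerf* pair, and 2433 and 1257 in the *10xBulge* pair. Its groups overlapped (log2 fold change -0.17 ± 0.45), and 36.6% of the 31-base words of its transcript are shared with another gene model, so its level is uncertain. The *Zpbp* transcript, coding for a zona pellucida binding protein of the acrosomal matrix, had 8128 and 9107 normalized counts in the wild-type pair, 9202 and 8583 in the *10xPerf* pair, and 4586 and 10868 in the *10xBulge* pair. The *10xBulge* libraries lay on either side of the wild-type pair, and 89.7% of the mean was left. Its paralog *Zpbp2* had 5913 and 7162 normalized counts in the wild-type pair, 7461 and 8929 in the *10xPerf* pair, and 6957 and 5224 in the *10xBulge* pair, again with overlap and a log2 fold change of -0.11 ± 0.39. The sign of the change in *Pick1*, *Zpbp* and *Zpbp2* turned positive when libraries were scaled by their totals.

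*Dpy19l2* codes for a protein of the inner nuclear membrane that anchors the acrosome to the nucleus. It kept 77.2% of wild type, with 5461 and 9285 normalized counts in *10xBulge* against 8668 and 10434 in wild type, and these groups overlapped. *Spata16*, a Golgi protein of the proacrosomal vesicles, had 5067 and 9723 normalized counts in the wild-type pair, 10547 and 11200.2 in the *10xPerf* pair, and 4548 and 3000.2 in the *10xBulge* pair. Both *10xBulge* libraries were below the others, and 51.03% was left, yet the log2 fold change of -0.93 ± 0.45 did not pass against wild type (adjusted p = 0.166, limma). *Spata16* was the building gene with the widest wild-type spread after *Gopc*, with 5067 in N1 and 9723 in N2.

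The 3 building genes that fell did so to unlike degrees. *Acr* (ENSMUSG00000022622.6, chromosome 15) had 13075 and 8406 normalized counts in the wild-type pair, 9500.5 and 8777 in the *10xPerf* pair, and 5484 and 3152 in the *10xBulge* pair. The *10xBulge* libraries were both below wild type, and 40.2% was left (log2 fold change -1.33 ± 0.44, adjusted p = 0.0548, limma). *Acrbp* (chromosome 6), whose protein binds the proenzyme of acrosin and holds it in the acrosomal granule, had 36719.7 and 20927 normalized counts in the wild-type pair, 19460.4 and 21884 in the *10xPerf* pair, and 14212 and 6887 in the *10xBulge* pair. The groups did not overlap, 36.6% was left, and the log2 fold change was -1.49 ± 0.50 (adjusted p = 0.0565). Of its 31-base words 26.6% are shared with another gene model. Neither call held without N1, where *Acr* was at -1.02 (adjusted p = 0.241) and *Acrbp* at -1.08 (adjusted p = 0.275), or without N6, where they were at -0.94 (adjusted p = 0.17) and -0.96 (adjusted p = 0.163). *Spaca1*, a protein of the inner acrosomal membrane that shapes the sperm head, had 1710.0 and 1846 normalized counts in the wild-type pair, 2899 and 1593 in the *10xPerf* pair, and 145 and 172 in the *10xBulge* pair. It was the only building gene under 10%, at 8.92% of wild type, with a log2 fold change of -3.48 ± 0.42 (adjusted p = 0.000254, limma).

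The contents and membranes of the acrosome were lower in 8 of 9 genes, with a median log2 fold change of -5.07. *Acrv1*, coding for the acrosomal matrix antigen SP-10 of round spermatids, had 3718 and 5348 normalized counts in the wild-type pair, 6810.3 and 5089.7 in the *10xPerf* pair, and 253 and 144 in the *10xBulge* pair, which left 4.38% of wild type (log2 fold change -4.54 ± 0.44). *Spaca7*, an acrosomal protein released at exocytosis, had 1026 and 1438 normalized counts in the wild-type pair, 2461 and 1359 in the *10xPerf* pair, and 10.5 and 12.3 in the *10xBulge* pair, the lowest share of this list at 0.926%. The groups of both genes were far apart. *Eqtn*, or equatorin, a membrane protein of the acrosome, read 41.4 and 45.01 in *10xBulge* against 1868 and 3418 in wild type, or 1.64%. *Zp3r*, the matrix protein sp56, was left at 4.04%, the lysozyme-like *Spaca3* at 2.51%, *Fam170b* at 3.33% and *Spaca9* at 1.85%. N5 lay above N6 in all 4, with 179.7 and 91.3 normalized counts in *Zp3r*, 187 and 96.9 in *Spaca3* and 274 and 88.3 in *Fam170b*. For *Fam170b* the share of wild type ran from 1.31% to 6.61% over the 4 library ratios. In *Spaca9* the *10xBulge* libraries differed most among the contents genes of the lower range, with 276 and 88.2 normalized counts, and both were far below the 11869.5 and 7775 of wild type.

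The other 2 contents genes, both in the upper range, lay near the threshold of the test. *Spesp1*, a protein of the equatorial segment, had 7744 and 9255 normalized counts in the wild-type pair, 10781 and 8574 in the *10xPerf* pair, and 5637 and 3156 in the *10xBulge* pair. Its groups did not overlap and 51.7% was left, but it did not pass against wild type (95% interval of the log2 fold change -1.98 to -0.03, adjusted p = 0.118, limma). Without N5 it was at -1.42 and passed (adjusted p = 0.046). *Crisp2*, a cysteine-rich secretory protein found in the acrosome and the tail, was the most abundant of the 35 genes in wild type per kilobase of transcript (18811 normalized counts per kb). It had 32302 and 55771 normalized counts in the wild-type pair, 61554 and 46314 in the *10xPerf* pair, and 9641 and 25830.3 in the *10xBulge* pair. In *10xBulge* 40.3% was left (log2 fold change -1.43 ± 0.56, adjusted p = 0.0942), and the call did not hold without any of the libraries N1, N2 or N5, where the adjusted p was 0.154, 0.350 and 0.324.

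Surface enzymes and proteins that meet the egg coat ran from 0.244% to 125% of wild type. Of the 8 genes 6 fell and 0 rose, with a median log2 fold change of -5.26. *Prss55*, a membrane-anchored serine protease, had 6963 and 3983 normalized counts in the wild-type pair, 4286 and 5323 in the *10xPerf* pair, and 18.8 and 7.97 in the *10xBulge* pair. This was the smallest share of all 35 genes, 0.244% of wild type (409.5-fold lower, log2 fold change -8.63 ± 0.50, adjusted p = 5.84e-06, limma). *Prss37*, a protease-like protein needed for the sperm surface protein ADAM3, had 6912 and 5706 normalized counts in the wild-type pair, 6161 and 7041 in the *10xPerf* pair, and 7.77 and 58.4 in the *10xBulge* pair. N6 was far above N5, the widest difference between *10xBulge* libraries among the 35 genes, and both stayed near 1% of wild type or under it. The hyaluronidases that open the cumulus matrix around the egg, *Spam1* and its neighbour *Hyal5* on chromosome 6, were left at 3.11% and 1.95%. In N5 and N6 *Spam1* had 56.1 and 42.1 normalized counts and *Hyal5* 39.9 and 80.1. *Spaca4*, a sperm surface protein that takes part in binding the egg coat, was left at 2.36%, with 182 and 60.6 normalized counts in N5 and N6 and library ratios from 1.13% to 3.68%.

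The other 3 surface genes kept over 30% of wild type. *Tex101*, a surface glycoprotein of germ cells that is present before the end of meiosis and acts on ADAM3, had 14209.8 and 13372 normalized counts in the wild-type pair, 7808 and 12225 in the *10xPerf* pair, and 19133 and 15368 in the *10xBulge* pair. Both *10xBulge* libraries were above both wild-type libraries, as in *Gopc* and in no other of the 35 genes, where 28.9% of all genes tested had such a separation upwards. However, the log2 fold change of 0.32 ± 0.42 did not pass (adjusted p = 0.62, limma). *Tmprss12*, another membrane serine protease, had 1238 and 1059.6 normalized counts in the wild-type pair, 885 and 1010.4 in the *10xPerf* pair, and 1242 and 1073 in the *10xBulge* pair. These groups overlapped, and 100.7% was left (95% interval of the log2 fold change -0.83 to 0.86). *Prss21*, or testisin, had 5928 and 4698 normalized counts in the wild-type pair, 3224 and 5440.4 in the *10xPerf* pair, and 2258 and 1172 in the *10xBulge* pair. It fell to 32.3% (log2 fold change -1.70 ± 0.47, adjusted p = 0.0266), and without N1 the adjusted p was 0.152.

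All 9 genes of fusion and egg activation fell in *10xBulge*, with a median log2 fold change of -4.53. *Izumo1* (ENSMUSG00000064158.7, chromosome 7) had 1313 and 1918 normalized counts in the wild-type pair, 2381 and 2090.3 in the *10xPerf* pair, and 81.5 and 80.3 in the *10xBulge* pair. The *10xBulge* libraries were nearly equal, and the log2 fold change was -4.28 ± 0.39 (adjusted p = 4.63e-05, limma). Of its 31-base words 25.9% are shared with another gene model. *Spaca6*, a partner of IZUMO1 in the fusion complex of sperm, had 2080.4 and 1390.4 normalized counts in the wild-type pair, 1890.3 and 1206 in the *10xPerf* pair, and 99.5 and 97.7 in the *10xBulge* pair. Again the *10xBulge* libraries were close to each other, at 5.68% of wild type. *Tmem95*, a small membrane protein required for fusion, had 1592 and 1107 normalized counts in the wild-type pair, 433 and 457 in the *10xPerf* pair, and 99.7 and 31.7 in the *10xBulge* pair. Here *10xPerf* was also below wild type, without passing the test (adjusted p = 0.596, limma), and *10xBulge* was lower still, at 4.87%.

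*Dcst1* and *Dcst2* code for paired membrane proteins of sperm that are needed for fusion, and their annotated gene bodies overlap by 14.8 kb on chromosome 3. The starts used for their promoters lie back to back, and transcripts from those starts run apart without overlap. *Dcst1* had 3697 and 2579 normalized counts in the wild-type pair, 3081 and 2799 in the *10xPerf* pair, and 168 and 218 in the *10xBulge* pair. *Dcst2* had 5410.3 and 2806 normalized counts in the wild-type pair, 2698 and 3033 in the *10xPerf* pair, and 103.6 and 52.4 in the *10xBulge* pair. *Dcst1* kept 6.15% and *Dcst2* 1.90%, on opposite strands of a stranded library, and how reads in the overlap were divided between them was not tested. *Plcz1* (ENSMUSG00000030230.16, chromosome 6) had 4213 and 7377 normalized counts in the wild-type pair, 8734 and 5940.4 in the *10xPerf* pair, and 55.1 and 85.0 in the *10xBulge* pair. Its share of 1.21% corresponds to a log2 fold change of -6.33 ± 0.45 (adjusted p = 1.29e-05, limma).

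The other members of the IZUMO family were left at very different shares. *Izumo2* had 1631 and 1839 normalized counts in the wild-type pair, 2263 and 2294 in the *10xPerf* pair, and 14.3 and 9.28 in the *10xBulge* pair. *Izumo3*, required for the acrosome to form properly, had 712 and 1345 normalized counts in the wild-type pair, 1792 and 1028 in the *10xPerf* pair, and 11.8 and 9.34 in the *10xBulge* pair. Both were near 1% of wild type or under it, at 0.679% and 1.03%. *Izumo4*, the family member without a transmembrane segment, had 7154 and 5613 normalized counts in the wild-type pair, 3551 and 5578 in the *10xPerf* pair, and 3124 and 1581 in the *10xBulge* pair. Its groups did not overlap, and 36.9% was left (log2 fold change -1.51 ± 0.47, adjusted p = 0.0416, limma). The call of *Izumo4* did not hold without N1 (adjusted p = 0.194) or without N6 (adjusted p = 0.148). The intervals of the log2 fold change, -2.56 to -0.46 for *Izumo4* and -5.17 to -3.39 for *Izumo1*, did not overlap, and the difference itself was not tested.

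Within each library, the level of early genes can be set against that of late genes without comparing libraries. The median log2 level of the building genes exceeded that of the later genes by 0.58 in N1, 1.11 in N2, 1.43 in N3 and 1.22 in N4, and by 5.11 in N5 and 5.17 in N6. As the lists were made with earlier results known, these levels are a description and support nothing. Single pairs are given to show the levels inside a library. In each, a gene over 30% of wild type in *10xBulge* was set over a gene under 10% after the values were seen, so the choice itself fixes the direction. *Zpbp2* over *Acrv1* was 1.10 to 1.75 in the 4 other libraries and 27.5 and 36.3 in *10xBulge*. *Izumo4* over *Izumo1* was 1.49 to 5.45 in the others and 38.3 and 19.7 in *10xBulge*. The ratio of *Prss21* to *Prss55*, both serine proteases, was 0.752 to 1.18 in the others and 120 and 147 in *10xBulge*.

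The second comparison asked which of the 35 genes differed between *10xPerf* and wild-type testes. In *10xPerf* testes 0 of the 35 genes passed the test in either direction (limma), where 0.492% of all genes tested were lower and 0.467% higher. An unadjusted p under 0.05 (limma) was found in 1448 of all 23782 genes tested and in 1 of the 35. That gene was *Tmem95*, at 33.0% of wild type, with both *10xPerf* libraries below both wild-type libraries (log2 fold change -1.58 ± 0.55, adjusted p = 0.596). In a fit of only these 2 genotypes its adjusted p was 0.104 (limma). Such a separation downwards was seen in 4 of the 35 genes and upwards in 6, and its share over all genes was not counted. The 35 genes ranged from 33.0% to 155% of wild type, with *Spaca7* the highest. Their median log2 fold change was 0.047, against 0.018 for all genes tested, with 16 genes below 0 and 19 above. *Izumo1* was at 138%, *Plcz1* at 127%, *Acr* at 85.1% and *Acrbp* at 71.7%. A *p* that misses the threshold with 2 libraries a group does not show that levels are equal, and the 95% interval for *Izumo1* ran from -0.40 to 1.38 on the log2 scale.

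**Figure D3:**
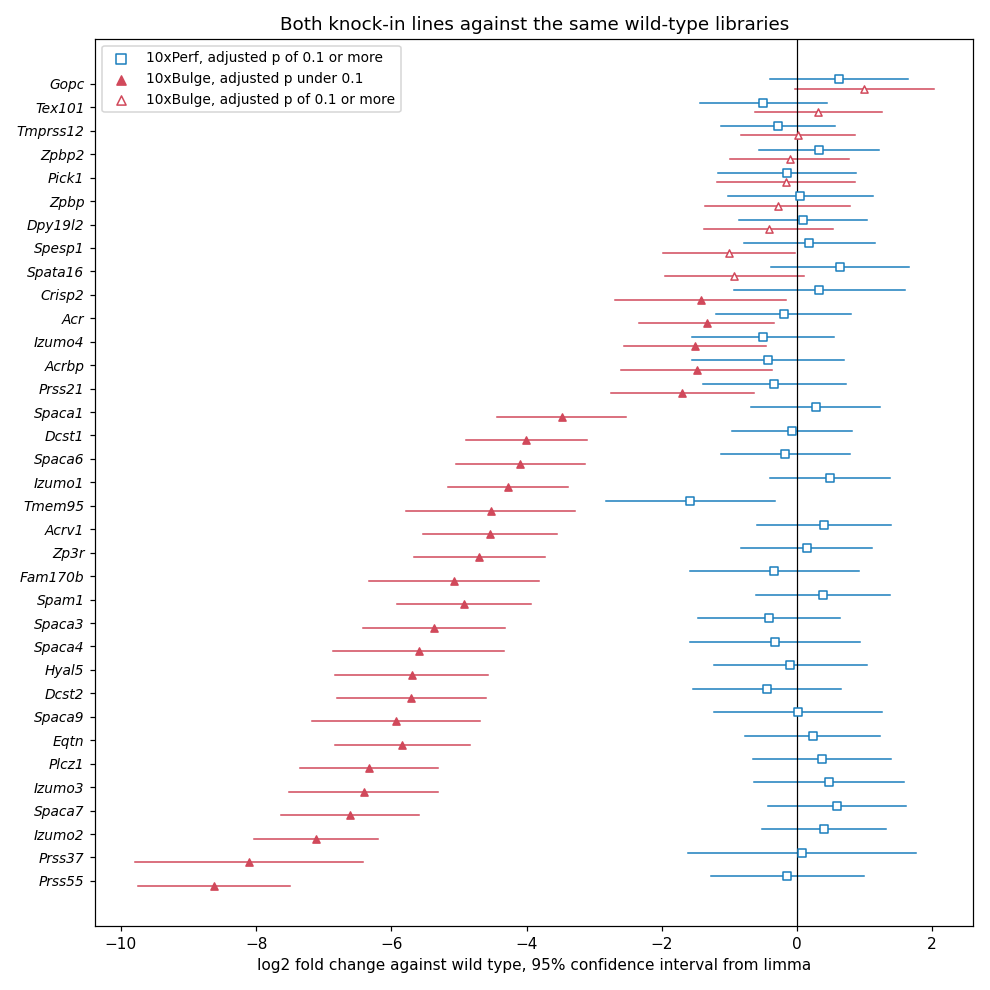
Log2 fold changes of the 35 genes against wild type with 95% confidence intervals from limma, with squares for *10xPerf* and triangles for *10xBulge*, filled where the adjusted p was under 0.1. Filled triangles mark 26 genes, no square is filled, and both lines are set against the same wild-type libraries.

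Set directly against *10xPerf*, 26 of the 35 genes were lower in *10xBulge* and 0 were higher (limma), where 24.1% of all genes tested were lower and 12.9% higher. The median log2 fold change was -3.93, against -0.067 for all genes. Both *10xBulge* libraries lay below both *10xPerf* libraries in 30 genes (35.3% of all genes tested). The later genes counted 23 lower of 26 and the building genes 3 of 9, here *Spaca1*, *Acr* and *Spata16*. *Spata16* was at -1.56 ± 0.45 (adjusted p = 0.0315) and *Spesp1* at -1.19 ± 0.43 (adjusted p = 0.0685), while *Acrbp* (adjusted p = 0.143) and *Izumo4* (adjusted p = 0.139) did not pass. *Acr* (adjusted p = 0.0864, limma) and *Spesp1* lay near the threshold. Fewer of the 35 genes were lower without N3, N4 or N6, though not without N5. Single genes of this comparison were not followed through the alternatives. The comparison shares its *10xBulge* libraries with the first one, so its counts are not a second line of evidence.

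A further list of 25 genes with known roles in acrosome formation or fertilization was set beside the 35. Of these, 23 had a row under their symbols and 22 were tested, and *Pate4* was at or near 0 throughout. In *10xBulge* 16 of the 22 were lower than in wild type and 0 higher (limma). Over all genes tested 23.0% were lower and 11.4% higher. The median log2 fold change of the 22 was -2.35. Their shares were spread out, with 9 over 30% of wild type, 4 between 10% and 30% and 9 under 10%. The largest changes were those of *Csnka2ip*, of the sperm fusion factor *Llcfc1* and of *Fam209*, an acrosomal partner of DPY19L2. *Llcfc1* had 13872 and 13186 normalized counts in the wild-type pair, 10664 and 12976 in the *10xPerf* pair, and 222 and 71.5 in the *10xBulge* pair, which left 1.08%. *Csnka2ip* was left at 0.852% and *Fam209* at 1.48%. At the other end were *Agfg1* and *Smap2*, which act in vesicle fusion and traffic at the forming acrosome, and *Ly6k*, which acts on ADAM3. They had 88.9%, 142% and 126% of wild type left and did not pass the test. This list was not divided into early and later genes. Genes tied to the forming acrosome lay at both ends, as *Fam209*, whose partner belongs to the building list, was among the largest falls. In *10xPerf* 0 of the 22 passed (limma), and 0 had an unadjusted p under 0.05, where 1448 of all 23782 genes tested had.

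**Figure D4:**
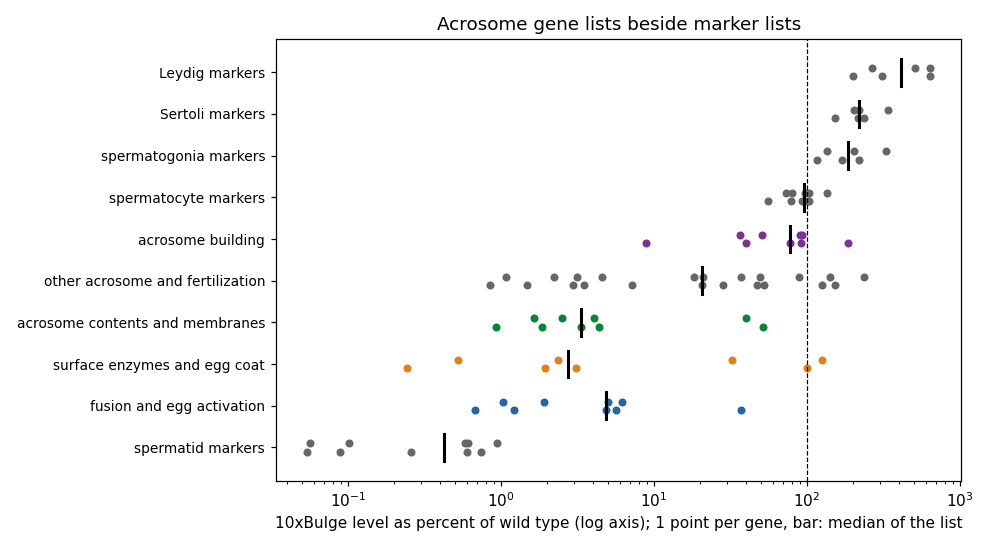
RNA left in *10xBulge* as a percentage of the wild-type mean on a log axis, with 1 point per gene and a bar at the median of each list, for the 4 lists of the 35 genes, the further acrosome and fertilization genes and marker lists of testis cells. The building genes, with a median of 77.2%, lie between the spermatocyte markers (median 95.2%) and the further acrosome and fertilization genes, while the 3 later lists lie between those and the spermatid markers (median 0.421%).

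The acrosome genes were also set beside the marker lists, which were chosen with earlier results known. Spermatid markers had 0.0540% to 0.938% of wild type left. Of the 20 later genes of the lower range, 16 had more left than any spermatid marker, and *Spaca7*, *Izumo2*, *Prss37* and *Prss55* lay within the range of the markers. How many of all genes under 10% of wild type lie above these markers was not counted. The difference is therefore not read as a trait of the acrosome genes. The 8 building genes other than *Spaca1* had 36.6% to 185% left, where spermatocyte markers had 56.1% to 136%. The building genes summed to 82480 and 70872 normalized counts in N1 and N2 of wild type and to 46026 and 42164 in N5 and N6 of *10xBulge*. For the later genes the sums were 146635 and 161233 in wild type and 43193 and 49579 in *10xBulge*, in the same order. Most of the *10xBulge* sums came from *Tex101* (19133 and 15368) and *Crisp2* (9641 and 25830), both in the upper range. These sums therefore do not stand for the typical later gene, of which a median of 3.22% was left.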

How the data were processed

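Total RNA-seq of 6 testis libraries was used. The study's 20 libraries of MILI- or MIWI-bound RNA are not analysed here. The authors assigned single-end reads to GRCm39 with its Ensembl annotation by salmon, which detected the library type and corrected for GC content. From these they deposited DESeq2-normalized read counts, a signal that is not whole reads (in 17.2% of genes above 0 every library held whole multiples of its step, within 0.001 reads), so no count test was run. Deposited log2 fold changes and adjusted p-values of the authors were not used. All numeric columns were matched to a library, their mean or such a comparison.

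The 23782 genes that reached 10 normalized counts in 2 or more libraries were tested. On log2(value + 1), limma 3.58.1 (R 4.3.3) was fitted with a term per genotype over all 6 libraries, a mean-variance trend, and Benjamini-Hochberg adjustment over all genes tested. The adjusted p threshold was 0.1. Errors after ± are standard errors. Log2 fold changes understate the change of low genes. The fit was tested on simulated data. The 35 genes, the lists and markers were chosen with earlier results of these data known. All 35 are named, values in every library are given for the 6 highest and 6 lowest shares left and for selected genes, and of the further list the 3 largest and 3 smallest changes are named. Transcript length, GC content, shared 31-base words and gene positions came from the longest GENCODE M21 transcripts on GRCm38, and promoters from RefSeq (GRCm38.p6). Intervals and floors of 3 reads cover counting error only where they rest on counts. Alternatives were other scalings, filters, pseudocounts and thresholds, a fit of only the 2 genotypes compared, no variance trend, removal of each library's GC trend (robust loess, span 0.3, centred on the library median, a form chosen after seeing the data), and leaving out each library. Python 3.11.15, pandas 2.3.3 and matplotlib 3.10.9 were used.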

Additional observations from a re-analysis of the deposited data

How the results depend on the processing

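In *10xBulge* against wild type, 22 to 28 of the 35 genes were lower in the alternatives that kept all libraries, against 26 as reported. The lowest count came with the filter of 10 in every library and the highest with upper-quartile scaling. Of all genes tested, 16.2% and 24.9% were lower in these, against 23.0% as reported. Leaving out N1 gave fewer calls among the 35 than any of these. The 21 genes under 10% of wild type kept their call in every alternative in which they were tested (log2 fold changes from -9.49 to -3.10, highest adjusted p 0.0133, limma), and the filter of 10 in every library left 31 of the 35 to test. Where 0 of the 35 were higher, 1 was (*Gopc*) with library totals, with the GC trend removed and without N2, so that leaving out libraries gave 0 to 1. Against *10xPerf* 22 to 28 were lower in the alternatives that kept all libraries, where 17% to 26.8% of all genes tested were. With library totals 1 was higher than in *10xPerf*, where 21.5% of all genes tested were. The median of the 35 genes was -3.90 with library totals, and -4.29 to -4.14 without single libraries. The median of the building genes minus that of the later genes, 4.59 as reported, was 4.20 with the filter of 10 in every library and 3.70 to 4.63 without single libraries, lowest without N6. Of the further list, 2 genes were higher with library totals. With the filter of 10 in every library, a pseudocount of 10 or the GC trend removed, 1 was. Of all genes tested, 24.4%, 14.4%, 12.3% and 16.2% were higher in these settings, in that order. For *10xPerf* against wild type, 0 of the 35 were called in each of the alternatives run. Directions turned in genes near 0. With library totals *Zpbp* was at 0.098, *Zpbp2* at 0.27 and *Pick1* at 0.22, and with upper-quartile scaling *Tmprss12* was at -0.13. Without single libraries *Pick1* ranged from -0.64 to 0.31, *Zpbp2* from -0.32 to 0.096, *Tmprss12* from -0.10 to 0.12 and *Zpbp* from -0.91 to 0.34. Of 521 values of single genes under alternatives, 483 kept direction and call, 20 lost the call (*Crisp2*, *Acrbp*, *Acr*, *Izumo4* and *Prss21*), 7 gained it (*Gopc*, *Spesp1* and *Spata16*) and 11 turned. The fit of only wild type and *10xBulge* gave adjusted p of 0.109 for *Acr*, 0.120 for *Acrbp* and 0.172 for *Crisp2*. Where 1 library is left in a genotype, it is assumed to vary like the others. Apart from these constructions, the cause was not tested. No paired analysis was possible because the genotypes share no replicate numbers. With 2 libraries per genotype, small changes may be missed.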
